A study of Danio rerio with 12 samples.

Results

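The genes described here code for the ion channels of the cell membrane and for the proteins that store, release and remove calcium. They were taken by symbol, as the genes named *kcn* (potassium channels and their accessory subunits), *scn* (sodium channels), *cacn* (calcium channels), *hcn* (pacemaker channels), *clcn* (chloride channels and transporters), *ryr* and *itpr* (calcium release channels), *casq* (calsequestrins), *atp2a* (calcium pumps of the sarcoplasmic reticulum) and *slc8a* (sodium-calcium exchangers). The rule took 199 of the 32105 genes in the table, and no measured value entered it. The study asked what Grl, a transcriptional repressor of the Hey family (also called Hey2), does in cardiomyocytes (CMs) of the regenerating zebrafish heart. RNA was sequenced from ventricles 7 days post amputation (dpa) of the ventricular apex, from WT sibling zebrafish and from *grl5nt-/-* zebrafish. All were of strain AB, 5 months old and labelled as untreated, and the mutant allele, a deletion of 5 nucleotides, was made by genome editing. Each genotype had 3 libraries, each from 6 pooled ventricles, so a library is a pool and not 1 animal. Ventricles are named in the study's methods, while the sample titles say hearts. The mutation is carried in every cell of the fish, and the ventricles hold several cell types. The *grl*-overexpressing hearts and their controls, 6 of the 12 samples of the series, are not analysed here.

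With each heartbeat, sodium and then calcium channels open and depolarize the CM, and potassium channels bring its membrane back to rest. Calcium that enters through the L-type channel opens the ryanodine receptors of the sarcoplasmic reticulum, the calcium store of muscle, and the calcium released there makes the sarcomeres contract. The calcium pump then returns it to the store, where calsequestrin holds it, and the sodium-calcium exchanger carries the remainder out of the cell.

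Total counts were between 12520034 and 15006574 per library, and 15602 genes passed the filter on low counts and were tested. The mitochondrial transcript *mt-co1* had 0 reads in WT libraries 1 and 2 and mutant library 1, and 583890, 739939 and 593632 reads in WT library 3 and mutant libraries 2 and 3. This split crosses the genotypes and is followed through the results, because the levels of many of the genes differed along it. A difference along the split is the log2 value of the libraries with minus those without these reads, fitted with genotype in the model. The genotype could not be checked by the level of the targeted gene: *hey2*, the symbol of *grl* in the table, had 256, 177 and 127 reads in the WT libraries and 228, 218 and 189 in the mutant libraries. These are raw counts, not scaled by library. Of 8 genes listed as markers of ventricular CMs, 6 were found. Their summed level was between 25436 and 29020 FPKM in the WT libraries and between 23587 and 29498 FPKM in the mutant libraries. Most of it came from *cmlc1*, *myl7* and *actc1a* (means of 14220, 7142 and 3731 FPKM). The sum says little about *vmhc*, at 50.6 FPKM, with a log2 fold change of -0.94 in the mutants. Of the 6, 3 had a positive and 3 a negative fold change, none past the adjusted threshold. FPKM, fragments scaled by transcript length and by mapped reads, is the unit that allows levels of different genes to be compared, and CPM, counts scaled by library size, is used to compare 1 gene between libraries. The genes listed as atrial markers, *myh6* and *nppa*, were detected in all 6 libraries and had lower means in the mutants. Their summed level was 1290 to 2004 FPKM in WT and 656 to 1515 FPKM in mutant libraries. Most of it came from *nppa* (a mean of 1174 FPKM, against 117 FPKM for *myh6*), so the sum says little about *myh6*. Whether *nppa* came from atrial tissue here was not tested. In such bulk samples, fewer cells of a type and less RNA per cell cannot be told apart.

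Most of the 199 genes were not detected or too low to be tested in the regenerating ventricle. There were 25 with no read in any library and 53 with some reads but never more than 3 in a library, a count that corresponds to 0.155 to 0.293 CPM. The filter kept 69 of the 199, against 15602 of all 32105 genes, and the highest mean level among the other 130 was 0.465 FPKM, for *kcnk18*. A mean of at least 1 FPKM was reached by 44 genes, at least 10 FPKM by 9 and at least 100 FPKM by 3. The groups differed in this: all 8 release channel genes and 7 of 8 calsequestrin and pump genes were tested, against 8 of 41 voltage-gated potassium channel genes and 2 of 18 two-pore potassium channel genes.

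The 3 genes over 100 FPKM were *atp2a2a*, *casq2* and *scn3b*, which code for the pump of the sarcoplasmic reticulum, its cardiac calcium buffer and an accessory subunit of sodium channels. *atp2a2a* had a mean of 780.8 FPKM ± 128.9 in WT and 762 FPKM ± 37.4 in *grl5nt-/-* (SD, n = 3 libraries each), and it alone made up between 45.3% and 63.0% of the FPKM summed over the 199 genes in a library. *casq2* followed with 263 FPKM ± 39.6 in WT and 258 FPKM ± 16.5 in the mutants. *scn3b* had 112 FPKM ± 20.3 and 105 FPKM ± 43.4. The order below them was *slc8a1a*, the cardiac exchanger (a mean over all 6 libraries of 61.7 FPKM), *kcnh6a*, the channel of the rapid delayed rectifier current in the zebrafish heart (25.8 FPKM), *casq1b* (22.8), the pacemaker channel *hcn2b* (22.8) and the cardiac ryanodine receptor *ryr2b* (22.6). The last 4 of these levels lie within one another's spread between libraries. *scn4ba*, a further accessory subunit of sodium channels, had a mean of 13.2 FPKM. Next came *atp2a2b*, the second copy of the pump gene (9.84), *clcn4*, an endosomal chloride-proton exchanger (9.69), *cacna1g*, the pore of a T-type calcium channel (9.69), *cacna1c*, the pore of the L-type channel (8.44), *kcne4*, a potassium channel accessory subunit (8.43), and *kcnq1*, the pore of the slow delayed rectifier current (6.61). These 6 also overlapped with their neighbours.

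**Figure D1:**
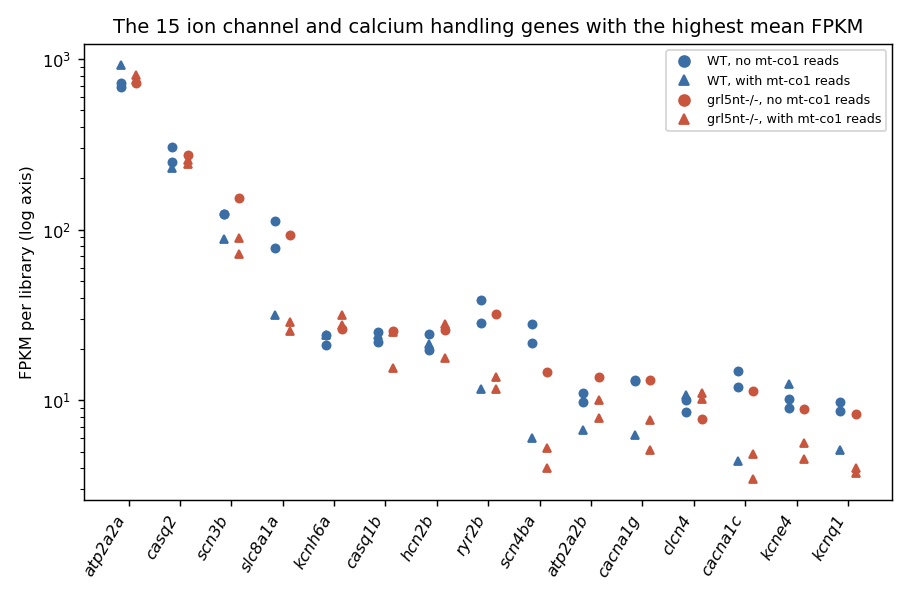
FPKM on a log axis for the 15 genes with the highest mean, 1 point per library (blue, WT; red, *grl5nt-/-*; circles, libraries without *mt-co1* reads; triangles, libraries with them). *atp2a2a* lies above all others in every library. The triangles of both genotypes lie below the circles for *slc8a1a*, *ryr2b*, *scn3b*, *scn4ba*, *cacna1g*, *cacna1c* and *kcnq1*.

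Several genes that carry cardiac currents in other hearts were close to absent. *kcnj2a*, a gene of the inward rectifier that sets the resting potential in mammalian ventricles, had 16, 7 and 2 reads in the WT and 2, 6 and 9 reads in the mutant libraries, and its copy *kcnj2b* had 0 reads in all 6, which allows at most the 3 counts per library given above. The higher inward rectifier genes were *kcnj11*, the pore of the ATP-sensitive potassium channel (5.83 FPKM), *kcnj5* (3.13 FPKM) and *kcnj12* (2.98 FPKM). *hcn4l* had 2 reads in all and *kcnh2a* 1 read, whereas *hcn4* and *kcnh6a* were both tested. Of 50 genes listed for the zebrafish heart or the cardiac action potential, 46 had a row among the 199 and 31 were tested.

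Between genotypes, none of the 69 genes reached the threshold of edgeR's quasi-likelihood (QL) test, an adjusted p (Benjamini-Hochberg) under 0.05, where 0.0769% of all tested genes (12) did. The lowest adjusted p was 0.224, for *kcnj13*. An unadjusted p under 0.05 was found for 6 genes, 8.70% of the 69 against 10.6% of all tested genes. Of these, 2 were higher in the mutants, *kcnk6* and *atp2a2b* (2.90% against 4.22% of all), and 4 were lower, *kcnj13*, *kcnn1a*, *itpr1a* and *hcn4* (5.80% against 6.35%). Both shares lay near or under that background. The count of 6 depended on single libraries: it was 2 without WT library 1, 1 without WT library 2, 10 without WT library 3, 16 without mutant library 1, 2 without mutant library 2 and 4 without mutant library 3. The share of the tested genes of the set was below that of all genes in each of these fits, also in those with the larger counts (13.0% against 22.2% without WT library 3 and 21.3% against 26.0% without mutant library 1).

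Groups did not overlap where all 3 mutant libraries lay on 1 side of all 3 WT libraries in CPM. Such genes were also no more frequent here than elsewhere. The mutants were higher for 3 genes, *atp2a2b*, *kcnk6* and *clcn2a* (4.35% against 6.95% of all tested genes), and lower for 5, *kcnj13*, *kcnn1a*, *itpr1a*, *clcn5b* and *clcn7* (7.25% against 8.64%). In FPKM the groups of *atp2a2b*, *clcn2a*, *itpr1a* and *clcn7* overlapped. The exact permutation test of 3 against 3 libraries cannot give a p below 0.1.

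The log2 fold changes of the 69 genes, as mutant over WT, had a median of -0.17, an interquartile range of -0.52 to 0.16 and extremes of -2.73 and 1.3. The median of all tested genes was -0.05. Negative values were held by 44 of the 69 (63.8%), against 53.1% of all tested genes. On the log2(FPKM + 1) scale 57 of the 69 were negative (82.6%), but so were 75.7% of all genes, whose own median there was -0.21. Set against the median of all genes, the median of the 69 was -0.13 in the count test, 0.03 on the log2(FPKM + 1) scale and 0.01 with a term for the *mt-co1* split. The same difference from the median of all genes was -0.40 without mutant library 1, -0.30 without WT library 3 and -0.01 without WT library 1, so its size depended on the scale and on single libraries.

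**Figure D2:**
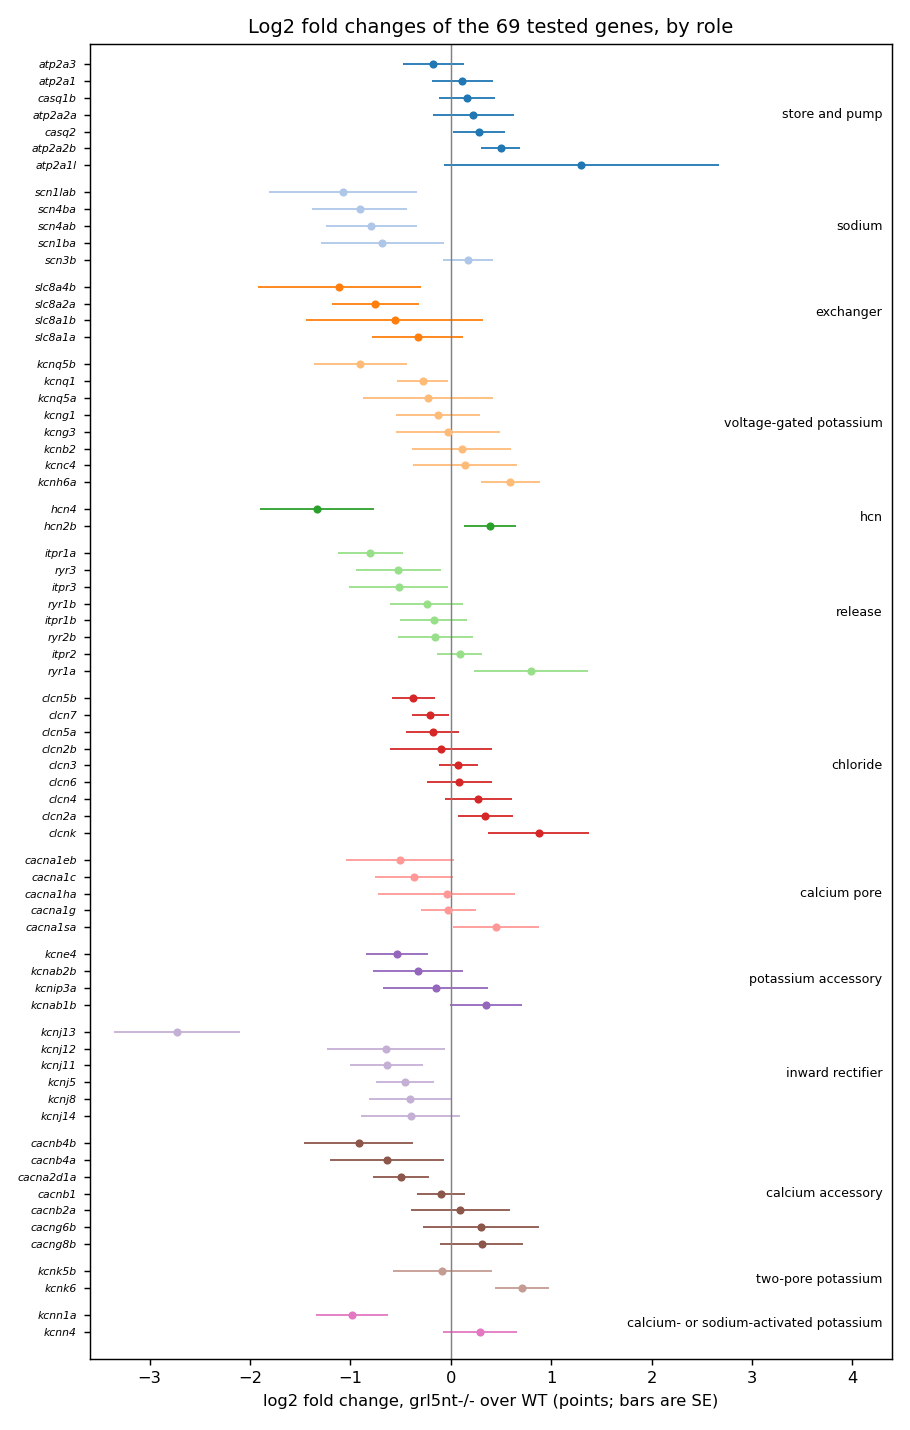
Log2 fold changes (*grl5nt-/-* over WT, points; bars, SE of the count model) of the 69 tested genes, grouped and coloured by role. The points range from -2.73 (*kcnj13*) to 1.3 (*atp2a1l*), and no gene had an adjusted p under 0.05 by edgeR QL.

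Among potassium channels, the inward rectifiers had low read counts and fold changes below 0. All 6 tested genes had a negative value, with a median of -0.55, and 16 further genes of the 22 were not tested. The 6 also had negative differences along the *mt-co1* split (median -0.90). *kcnj13* (ENSDARG00000043443, GRCz10 chr15:40370204-40420433) codes for an inward rectifier known in zebrafish from mutants with altered skin stripes. It had 114, 130 and 20 reads in WT libraries 1, 2 and 3 and 11, 12 and 5 reads in mutant libraries 1, 2 and 3, or 5.90, 7.76 and 1.57 CPM against 0.752, 1.04 and 0.488 CPM. The WT mean was 5.08 CPM ± 3.18 and the mutant mean 0.759 CPM ± 0.275 (SD, n = 3 each). All mutant libraries lay below all WT libraries, and WT library 3 was much closer to the mutants than the other two. The log2 fold change was -2.73 (SE 0.62), with an adjusted p of 0.224 by edgeR QL and a two-sided exact permutation p of 0.1. The difference had the same sign in the libraries without *mt-co1* reads (-2.95) and in those with them (-0.99). For this and the genes below, each side sets 1 library of 1 genotype against the others. The sides compare WT 1 and 2 with mutant 1, and WT 3 with mutants 2 and 3. Where the groups do not overlap, as here, the same sign on both sides follows from that. *kcnj13* was the only one of the 69 called by DESeq2 (adjusted p = 0.00438; 1 of 69 or 1.45%, against 1.55% of all genes, with 7 of the 69 at an unadjusted p below 0.05, or 10.1% against 11.6% of all) and by edgeR's exact test (adjusted p = 0.00594; 1.45% against 1.53% of all genes). It was not called with a term for the split (edgeR QL adjusted p = 0.0869; 0 of 69 against 1.54% of all genes, with 10 of the 69 at an unadjusted p below 0.05, or 14.5% against 18.1% of all). Without WT library 3 its adjusted p by edgeR QL was 0.0368. In that fit 22.2% of all tested genes had an unadjusted p below 0.05, against 10.6% with all libraries. Over 14 alternatives the adjusted p of *kcnj13* ranged from 0.00438 to 0.8. A second identifier with the same symbol (ENSDARG00000097715) lies within its locus and had 2, 3 and 0 reads in WT and 0 reads in all mutant libraries, so the reads of the locus may be divided between the pair.

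The other inward rectifiers had smaller differences. *kcnj11* had 7.92, 7.34 and 7.99 CPM in WT and 7.66, 4.24 and 2.93 CPM in the mutants (log2 fold change -0.64, SE 0.36, edgeR QL adjusted p = 0.544). Mutant libraries 2 and 3 lay below all others, and mutant library 1 was among the WT values. *kcnj5*, a subunit of the acetylcholine-gated channel that is mainly atrial in mammals, had 8.33, 9.49 and 5.49 CPM in WT and 6.22, 5.10 and 5.66 CPM in the mutants, with overlap. The genes listed as atrial markers, *myh6* and *nppa*, also had lower mutant means, and the part of atrial tissue in this difference was not tested.

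The calcium-activated channel gene *kcnn1a* (GRCz10 chr2:24754843-24806626), of the small-conductance family, had 88, 78 and 70 reads in WT and 45, 17 and 29 reads in the mutants. In CPM these were 4.56, 4.65 and 5.49 against 3.08, 1.47 and 2.83. The WT libraries were close together and all lay above the mutant libraries, with mutant library 2 lowest. The log2 fold change was -0.99 (SE 0.36) and the adjusted p 0.416 by edgeR QL. Its difference was negative on both sides of the *mt-co1* split (-0.56 without and -1.36 with those reads). The fitted difference along the split, with genotype in the model, was small (-0.10). *kcnk6* (GRCz10 chr18:46173086-46185444), a two-pore channel gene of the family that gives background potassium currents, had the opposite direction. It had 6.11, 6.86 and 9.01 CPM in WT and 9.64, 14.3 and 12 CPM in the mutants. The groups did not overlap, although WT library 3 and mutant library 1 were near each other. Its log2 fold change was 0.71 (SE 0.27, edgeR QL adjusted p = 0.428), with 0.56 and 0.53 on the sides of the split without and with *mt-co1* reads.

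Of the voltage-gated potassium channel genes, 8 of 41 were tested, with a median of -0.08. *kcnh6a*, in which mutations change repolarization of the zebrafish heart, had 150, 139 and 226.5 CPM in WT and 187, 281 and 310 CPM in the mutants. Mutant libraries 2 and 3 were highest and WT library 3 came next, so that the groups overlapped. Its log2 fold change was 0.59 (SE 0.29) with an adjusted p of 0.507 by edgeR QL, and its difference along the split was 0.66. *kcnq1* had 22.1, 26.6 and 19.7 CPM in WT and 24.7, 16.6 and 14.9 CPM in the mutants (log2 fold change -0.28, SE 0.25). *kcne4*, whose protein reduces KCNQ1 current in mammals, had 24.3, 29.1 and 51.4 CPM in WT and 27.9, 25 and 19.3 CPM in the mutants (-0.53, SE 0.31). For *kcne4* the high value was WT library 3 and the remaining libraries lay between 19.3 and 29.1 CPM. *kcnq5b*, of the family that carries the M-type current in neurons, had 3.05, 1.97 and 1.18 CPM in WT and 1.23, 1.21 and 0.879 CPM in the mutants (-0.90, SE 0.46). Markers of neurons, summed over 6 genes, were at 10.2 to 15.8 FPKM in WT and 6.81 to 8.45 FPKM in mutant libraries, a scale on which most tested genes were lower in the mutants. Most of the sum came from *tubb5* (a mean of 6.3 FPKM, log2 fold change 0.23) and *syt1a* (2.83 FPKM, -2.39). In the count test 3 of the 4 tested were lower, none past the adjusted threshold. The part of neurons in the values of *kcnq5b* was not tested.

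Sodium channel genes were represented mainly by accessory subunits. No row was found for *scn5lab*, the main cardiac sodium channel pore known in zebrafish, so its level is not analysed here. Of 13 sodium channel genes 5 were tested, 4 had a negative fold change and the median was -0.79. *scn3b* had 403, 425.5 and 435 CPM in WT and 583, 382 and 461 CPM in the mutants (log2 fold change 0.17, SE 0.25), and in CPM only mutant library 1 stood apart. *scn4ba* had 44.9, 36.9 and 14.7 CPM in WT and 27.4, 10.5 and 13.3 CPM in the mutants. The log2 fold change of *scn4ba* was -0.91 (SE 0.47, edgeR QL adjusted p = 0.518). WT library 3 lay with mutant libraries 2 and 3. In the model with both genotype and split, the difference along the split was -1.34 and that between genotypes -0.45. *scn4ab*, a pore gene of skeletal muscle, had 14.2, 26.0 and 12.9 CPM in WT and 16.0, 4.76 and 9.86 CPM in the mutants.

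The pacemaker channels open on hyperpolarization and help to set the heart rate. *hcn2b* had 59.2, 51.2 and 79.5 CPM in WT and 72.5, 70.1 and 106 CPM in the mutants (log2 fold change 0.39, SE 0.26, edgeR QL adjusted p = 0.566). *hcn4* (GRCz10 chr18:1112470-1251622), a marker of pacemaker cells, had 259, 143 and 52 reads in WT and 87, 17 and 29 reads in the mutants, or 13.4, 8.53 and 4.07 CPM against 5.95, 1.47 and 2.83 CPM. WT library 3 lay below mutant library 1, and the lowest values were those of mutant libraries 2 and 3. Its log2 fold change was -1.33 (SE 0.57, edgeR QL adjusted p = 0.466), and the difference along the split was -1.45. On the sides of the split without and with those reads the genotypes differed by -0.83 and -0.95. *myh6*, the atrial myosin, had 14052, 17799 and 6838 reads in WT and 13153, 2892 and 3482 reads in the mutants, with the same 3 libraries low as for *hcn4*. The other gene of the atrial list, *nppa*, had 32520, 40167 and 29563 reads in WT and 28830, 14870 and 15005 reads in the mutants. It was low in mutant libraries 2 and 3 but not in WT library 3. The part of atrial tissue in the values of *hcn4* was not tested.

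**Figure D3:**
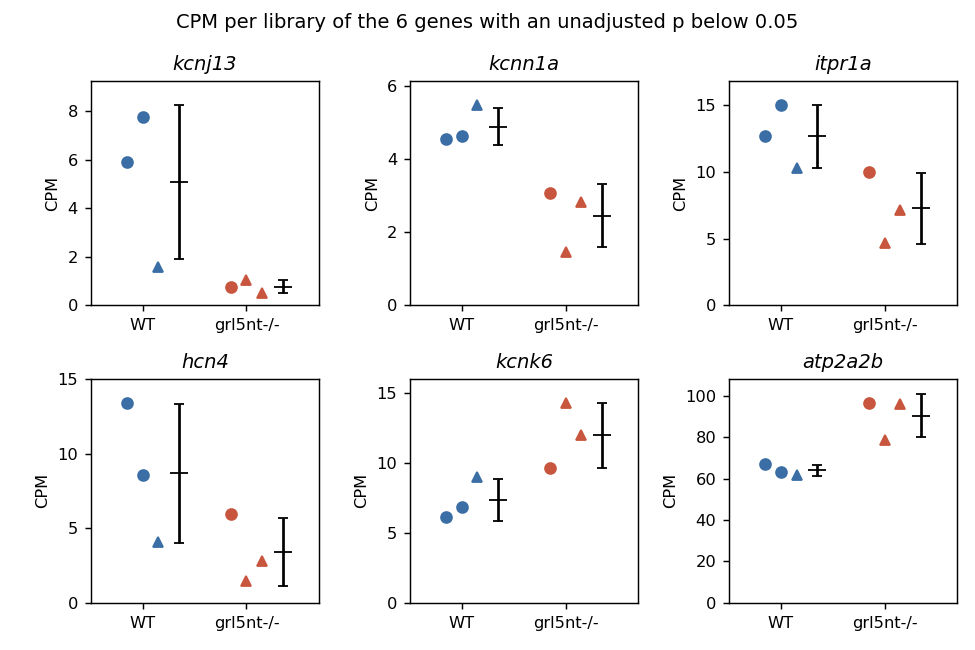
CPM per library of the 6 genes with an unadjusted p below 0.05 (blue, WT; red, *grl5nt-/-*; circles, libraries without *mt-co1* reads; triangles, libraries with them; black bars, mean and SD, n = 3). The groups of *hcn4* overlap, and those of *kcnj13*, *kcnn1a*, *itpr1a*, *kcnk6* and *atp2a2b* do not.

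Calcium channel pores were led by *cacna1g* and *cacna1c*. *cacna1c*, which is needed for the heartbeat in zebrafish embryos, had 85.3, 73.0 and 38.6 CPM in WT and 75.9, 32.5 and 44.1 CPM in the mutants (log2 fold change -0.37, SE 0.38, edgeR QL adjusted p = 0.677). *cacna1g* had 91.5, 98.5 and 66.6 CPM in WT and 107, 59.2 and 85.6 CPM in the mutants (-0.03, SE 0.28). Neither difference exceeded the spread between libraries, and *cacna1c* was low in WT library 3 and mutant libraries 2 and 3 whatever the genotype (difference along the split -1.01). Over the 5 tested pore genes of 18 the median fold change was -0.04. The 7 tested accessory subunit genes of 30 had a median of -0.10, with 3 positive and 4 negative. *cacna2d1a*, which helps to bring the pore to the membrane, had 22.9, 18.2 and 17.9 CPM in WT and 18.3, 9.42 and 14.1 CPM in the mutants (-0.50, SE 0.28, edgeR QL adjusted p = 0.538). Only mutant library 1 lay among the WT values.

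All 8 calcium release channel genes were tested, with a median fold change of -0.21, and 6 were negative. *ryr2b* had 648, 502 and 297.5 CPM in WT and 620.3, 317 and 363 CPM in the mutants (log2 fold change -0.16, SE 0.37, edgeR QL adjusted p = 0.854). Its sign changed with a term for the split, to 0.15. *ryr3* had 125, 107 and 52.4 CPM in WT and 105, 42.1 and 51.1 CPM in the mutants (-0.52, SE 0.42). Both were low in the libraries with *mt-co1* reads of either genotype. *itpr1a* (GRCz10 chr6:39925516-39994018), a receptor for inositol trisphosphate, had 246, 252 and 131 reads in WT and 146, 54 and 73 reads in the mutants. Scaled by library these were 12.7, 15 and 10.3 CPM against 9.98, 4.67 and 7.13 CPM. In CPM the groups did not overlap, but WT library 3 and mutant library 1 almost met. In FPKM they overlapped, with 1.74, 1.93 and 0.926 in WT and 1.18, 0.39 and 0.619 in the mutants. The log2 fold change was -0.80 (SE 0.32, edgeR QL adjusted p = 0.447). Its copy *itpr1b* had a value of -0.17 (SE 0.33), and *itpr2* one of 0.09 (SE 0.22).

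The genes of the calcium store had mostly positive fold changes in the count test, with 6 of 7 above 0 and a median of 0.22 (-0.02 on the FPKM scale). *atp2a2a* had 3133, 3134 and 6037 CPM in WT and 3633, 5302 and 5429 CPM in the mutants. The log2 fold change of *atp2a2a* was 0.22 (SE 0.40, edgeR QL adjusted p = 0.805; -0.02 on the log2(FPKM + 1) scale). The 3 libraries with *mt-co1* reads were all above the others, and the genotypes overlapped. *casq2* had 682, 592 and 777 CPM in WT and 708, 936 and 846 CPM in the mutants (0.28, SE 0.26; -0.02 on the log2(FPKM + 1) scale). *casq1b* had 77.1, 71.6 and 113 CPM in WT and 90.3, 127 and 75.2 CPM in the mutants (0.16, SE 0.28; -0.13 on the log2(FPKM + 1) scale).

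*atp2a2b* codes for a second form of the pump. It had 67.0, 63.4 and 61.9 CPM in WT and 96.6, 78.5 and 96.0 CPM in the mutants, or 64.1 CPM ± 2.64 and 90.4 CPM ± 10.3 (SD, n = 3 each). In CPM the WT libraries lay within a narrow range and all mutant libraries lay above it. In FPKM the groups overlapped, with 11, 9.78 and 6.71 in WT and 13.7, 7.87 and 10 in the mutants. The log2 fold change was 0.50 (SE 0.20), the unadjusted p 0.0343 and the adjusted p 0.443 by edgeR QL, and the fold change was 0.17 on the log2(FPKM + 1) scale. The difference was 0.57 in the libraries without *mt-co1* reads and 0.49 in those with them. The fitted difference along the split, with genotype in the model, was only -0.11. In FPKM *atp2a2a* exceeded *atp2a2b* by 66.3, 70.1 and 138 times in the WT and by 53.3, 95.7 and 80.2 times in the mutant libraries. The positive fold change of *atp2a1l*, 1.3 (SE 1.37), came from 1 library, with 2, 10 and 12 reads in WT and 0, 2 and 40 reads in the mutants. Of 9 skeletal muscle markers, *mylpfa* (14, 35 and 87 against 20, 21 and 180 reads), *tnnt3b* and *myhz2* also had the most reads in mutant library 3, and the other 6 did not. The summed level of the 9 was 4727 to 5749 FPKM in WT and 5111 to 6319 FPKM in mutant libraries. Most of it came from *ckma* and *acta1b* (means of 2647 and 2606 FPKM), against 2.9 for *mylpfa*, 0.422 for *tnnt3b* and 0.283 for *myhz2*. The sum thus says little about the last 3. All 7 tested had positive fold changes, from 0.01 for *ckma*, and none passed the adjusted threshold. The part of these markers in the value of *atp2a1l* was not tested.

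All 4 tested exchanger genes of 7 had negative fold changes, with a median of -0.66. *slc8a1a*, without which zebrafish embryonic hearts fibrillate, had 814, 603 and 346 CPM in WT and 776, 299 and 327 CPM in the mutants (log2 fold change -0.33, SE 0.45, edgeR QL adjusted p = 0.746). WT library 3 lay with mutant libraries 2 and 3, below the other 3 libraries, and the difference along the split was -1.17. With a term for the split the log2 fold change between genotypes was -0.01. *slc8a2a* had 3.11, 5.43 and 2.74 CPM in WT and 1.78, 1.64 and 3.32 CPM in the mutants (-0.75, SE 0.43).

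Chloride channels and transporters had values on both sides of 0: 9 of 12 genes were tested, 5 had positive and 4 negative fold changes, and the median was 0.07 (-0.12 on the log2(FPKM + 1) scale). *clcn4* had 18.6, 23.2 and 35.5 CPM in WT and 19.8, 36.1 and 37.8 CPM in the mutants (0.28, SE 0.33; -0.02 on the log2(FPKM + 1) scale). *clcn7*, a transporter of lysosomes, had 43.3, 39.3 and 39.5 CPM in WT and 34.0, 34.0 and 38.0 CPM in the mutants (-0.21, SE 0.18, edgeR QL adjusted p = 0.637). In CPM the groups of *clcn7* did not overlap, by the narrow gap between WT library 2 and mutant library 3. In FPKM they overlapped, with mutant library 1 at 4.98 and WT library 3 at 4.44. *clcn2a*, a channel of the cell membrane, had 7.45, 4.71 and 6.97 CPM in WT and 7.52, 8.21 and 8.59 CPM in the mutants, also with a narrow gap (0.34, SE 0.27). In FPKM its groups overlapped, with 2.66 in WT library 1 and 1.79 to 2.31 in the mutants.

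Beside the comparison of genotypes, the levels of the genes were compared along the *mt-co1* split. These values are a description, because the split was found in the data, and no test was made of them. The libraries with *mt-co1* reads were WT 3 and mutants 2 and 3, and those without were WT 1 and 2 and mutant 1. As log2 difference of the former minus the latter, fitted with genotype in the model, the 69 genes had a median of -0.54. That of all tested genes was -0.04. The difference was negative for 51 of the 69 (73.9%, against 52.0% of all genes) and below -1 for 19 (27.5% against 15.4%). In CPM, libraries with and without those reads did not overlap, with the former lower, for 31 genes (44.9% of the 69 against 27.1% of all). The former were higher without overlap for 5 genes, *casq2*, *kcnh6a*, *atp2a2a*, *clcn4* and *clcnk* (7.25% against 24.1%). CPM includes a scaling factor per library (TMM), which itself followed the split. It was 1.31, 1.23 and 1.14 for WT 1, WT 2 and mutant 1. For WT 3, mutant 2 and mutant 3 it was 0.851, 0.788 and 0.819. In FPKM, *atp2a2a* and *clcn4* stayed higher without overlap. *casq2* overlapped, at 251 to 307 FPKM without and 231 to 258 FPKM with those reads, as did *kcnh6a* and *clcnk*. The part of the scaling in these differences was not tested.

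In the count model, the roles parted along this split. All 8 release channel genes were lower in the libraries with *mt-co1* reads (median -0.83), as were the 4 exchanger genes (-1.32), the 5 sodium channel genes (-0.88) and the 5 calcium channel pores (-0.86). The 7 store and pump genes had a median of 0.33 and the 9 chloride genes one of 0.01. The ratios between genes of the calcium cycle followed the split as well. Per library, *atp2a2a* exceeded *slc8a1a* in FPKM by 6.46, 8.72 and 29.3 times in WT and by 7.85, 29.7 and 27.9 times in the mutants. It exceeded *ryr2b* by 18.9, 24.3 and 79.2 times in WT and by 22.9, 65.2 and 58.4 times in the mutants. Both ratios were chosen after the values had been seen. The 3 libraries without *mt-co1* reads held the 3 lowest values of each. Longer transcripts tended to have lower values along the split, with a Spearman coefficient across genes of -0.17 for the 69 and -0.28 for all 15602 tested genes. The median transcript length was 4.43 kb for the 69 and 2.96 kb for all tested genes, all from the same 6 libraries. The part of length in these differences was not tested.

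**Figure D4:**
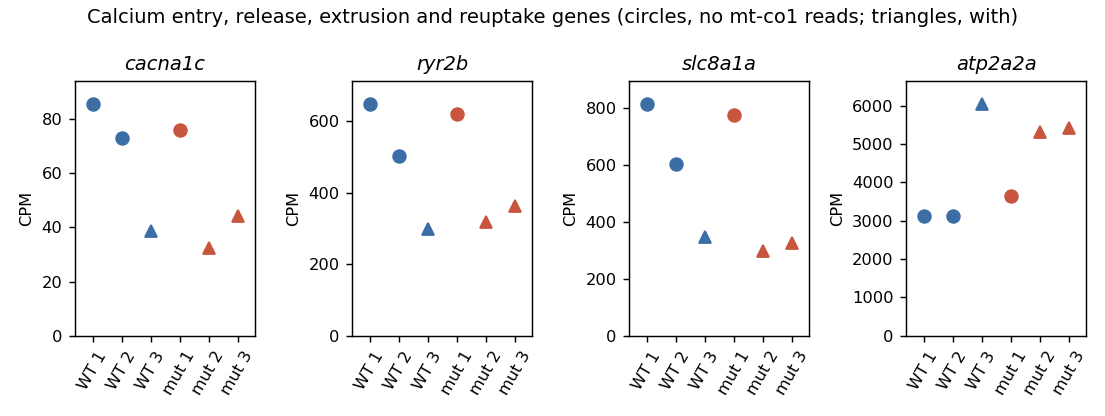
CPM per library, from 0, of *cacna1c* (entry), *ryr2b* (release), *slc8a1a* (extrusion) and *atp2a2a* (reuptake) in WT (blue) and *grl5nt-/-* (mut, red) libraries 1 to 3. Triangles, the libraries with *mt-co1* reads, are the 3 lowest for the first 3 genes and the 3 highest for *atp2a2a* (5302 to 6037 CPM, against 3133 to 3633 CPM for the circles).

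**Figure D5:**
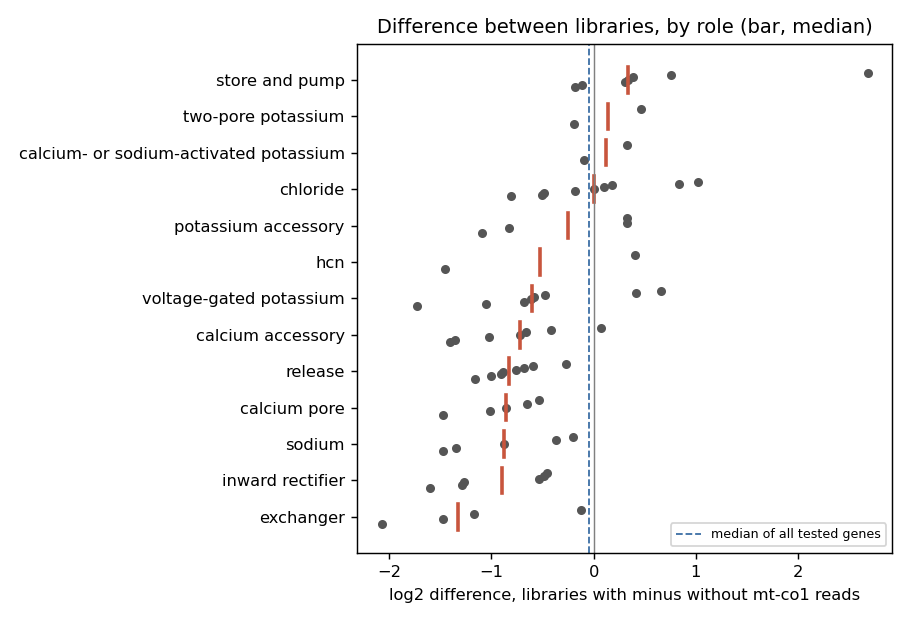
Log2 difference of the libraries with minus those without *mt-co1* reads, fitted with genotype in the model, 1 point per tested gene, by role (red bar, median of the role; dashed line, median of all tested genes, -0.04). The medians run from -1.32 for exchangers to 0.33 for store and pump genes.

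Across the 69 genes, the log2 CPM of WT library 1 had a Pearson coefficient of 0.977 with mutant library 1 but of 0.958 with WT library 3, and WT library 3 one of 0.978 with mutant library 2. These are correlations across genes, which are not independent replicates, and the libraries share the large differences in level between genes.

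Further genes of excitation-contraction coupling and calcium regulation were taken from a list of 85 symbols outside the rule, of which 74 were found and 66 genes tested. None reached an adjusted p under 0.05 by edgeR QL (lowest adjusted p 0.324), with 4 at an unadjusted p below 0.05. The unadjusted calls were 2 higher and 2 lower, 3.03% each, against the 4.22% and 6.35% of all tested genes given above. DESeq2 called 1 of the 66 (1.52%, against 1.55% of all tested genes), *atp1b1b* (adjusted p = 0.0288). The median fold change was -0.04, with 27 positive and 39 negative. *pln*, whose protein phospholamban inhibits the calcium pump, had 610.2, 522 and 446 CPM in WT and 688, 442 and 401 CPM in the mutants (log2 fold change -0.04, edgeR QL adjusted p = 0.948). The scaffold gene *akap6*, which anchors protein kinase A in CMs of mammals, had 17, 23 and 28 reads in WT and 48, 53 and 50 reads in the mutants (1.53, SE 0.42, edgeR QL adjusted p = 0.324). All mutant libraries lay above all WT libraries of *akap6*. *atp1b1b*, a subunit of the sodium pump, had 1, 9 and 18 reads in WT and 155, 11 and 66 reads in the mutants, and its groups overlapped (3.24, SE 1.02). *atp2b1b*, a calcium pump of the cell membrane, had 122, 85 and 50 reads in WT and 46, 32 and 23 reads in the mutants (-0.90, SE 0.32, edgeR QL adjusted p = 0.414). *stim1b*, the sensor of the calcium store, had 113, 105 and 53 reads in WT and 54, 10 and 33 reads in the mutants (-1.06, SE 0.50).

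Markers of the epicardium, the outer cell layer of the heart, had negative fold changes in the mutants for all 3 genes of the list. None passed the adjusted threshold. Their sum was 76.9 to 97.4 FPKM in WT and 39.1 to 49.5 FPKM in mutant libraries. Most of it came from *tcf21* (a mean of 45.6 FPKM, against 10.3 for *tbx18* and 8.05 for *wt1b*), so the sum says little about the other genes. In CPM, all mutant libraries lay below all WT libraries for 5 of the 69 genes (7.25%), *kcnj13*, *kcnn1a*, *itpr1a*, *clcn5b* and *clcn7*. The same held for 3 of the 66 other coupling genes (4.55%), *atp2b1b*, *stim1b* and *orai2*, against 8.64% of all tested genes. The epicardial sum is in FPKM, a scale on which most tested genes had lower mutant values, so the measures differ. The genes named here were taken by their low mutant values, so the shared direction was given in advance. The part of the epicardium in them was not tested. Erythrocyte markers were at a sum of 7061 to 23051 FPKM in WT and 15671 to 22173 FPKM in the mutants, most of it from *hbaa1* (a mean of 15749.5 FPKM). No marker found in the table was at 0 in all libraries.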

How the data were processed

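Ventricle RNA was sequenced in 6 libraries. Per the labels and the study's methods, reads cleaned with Seqtk were mapped by the authors with HISAT2 (2.0.4) on GRCz10, and StringTie (1.3.0) gave the FPKM. The deposited table has the raw count and the FPKM of each gene in each library. The program that counted and its use of strand are not given in the sources used here, and 20 of the 69 tested genes overlap another gene, so shared reads may be misplaced. Groups and columns were matched by the labels. Counts were scaled with TMM factors, filtered with filterByExpr and tested with edgeR 4.0.16 (quasi-likelihood, two-sided, Benjamini-Hochberg) in R 4.3.3. The spread is that between pools. The limit of detection was set at a count of 3 and covers counting error only. Alternatives used DESeq2 1.42.0, edgeR's exact test and limma 3.58.1 on log2(FPKM + 1) or log2(FPKM + 0.1), other filters, a block, a term for the *mt-co1* split and leaving out each library. The tests were tried on simulated counts.

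The genes and lists were chosen with earlier results of these data known. Genes named are the 15 highest in mean FPKM, the 10 with the smallest p, those of a list for the heart and the 5 with the smallest p among other coupling genes; the remaining genes were picked after their values were seen. The 24 symbols in capitals (3 tested) were left out.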

Additional observations from a re-analysis of the deposited data

How the results depend on the processing

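Of 399 values of 27 named genes under alternatives, 373 kept direction and side of the threshold. The count of called genes (0) was 1 under DESeq2, edgeR's exact test and the replicate block, each time *kcnj13*, and 0 to 1 when each library was left out. Under the block this was 1.45% of the tested genes of the set, against 0.846% of all tested genes (132). That higher share rests on 1 gene. The call with a library left out came without WT library 3. In that fit 22.2% of all tested genes had an unadjusted p below 0.05, against 10.6% with all libraries. The share of all genes past the adjusted threshold is not given for that fit. Unadjusted calls, 2 higher and 4 lower, became 4 and 9 with no filter, 0 higher on both FPKM scales, 1 lower at a mean FPKM of at least 1, 7 lower with the split term and 7 lower with the block. Leaving out each library gave 0 to 3 higher and 1 to 13 lower, and medians of -0.48 to -0.013. In each of those fits the share of unadjusted calls in the set was below that of all genes. For the other coupling genes DESeq2 called 1 (1.52%, against 1.55% of all tested genes), and the median was -0.27 and -0.33 on the scales with 1 and 0.1 added. On those scales the chloride median was -0.12 and -0.22, store and pump -0.024 on both, and release -0.51 with 0.1 added; with the split term release was 0.060 and store and pump 0.060. Without each library in turn calcium pores ranged from -0.72 to 0.10, chloride from -0.088 to 0.16, release from -0.50 to 0.023, and store and pump from 0.077 to 0.41.

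Signs reversed for *atp2a2a* (-0.024), *casq2* (-0.018), *scn3b* (-0.14), *casq1b* (-0.13 and -0.14) and *clcn4* (-0.024 and -0.027) on the FPKM scales, for *clcn4* (-0.011), *ryr2b* (0.15) and *cacna1g* (0.15) with the split term, and for *cacna1g* (0.019) with DESeq2's size factors or test. With each library left out, *casq1b* ranged from -0.068 to 0.40, *ryr2b* from -0.48 to 0.12 and *cacna1g* from -0.22 to 0.18. The FPKM scales do not include the TMM factors, which the count test uses. The part of this in the reversals was not tested, nor was any other cause.

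Replicate numbers did not pair the libraries: deviations of same-numbered libraries correlated at 0.59, -0.34 and 0.39. With the block, *kcnj13* had an adjusted p of 0.0228 in edgeR's quasi-likelihood test, and 10 genes had an unadjusted p below 0.05 (14.5%, against 18.2% of all tested genes). Genes under the detection limit cannot be compared at this depth.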
